A study of Mus musculus with 30 samples.

Results

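The 1276 snoRNA genes on mouse chromosomes 1 to 19 were located against the DNA replication initiation zones of embryonic stem cells. They are all genes of biotype snoRNA on these chromosomes in RefSeq's table for GRCm38.p6, which is mm10 with patches, out of 46709 genes of every biotype there. The 54 snoRNA genes of the X chromosome and 10 placed on scaffolds were left out. By symbol, 92 genes started with Snord, 36 with Snora and 1148 with other letters, of which 874 started with Gm and 264 with LOC. The whole body of another gene, the host, held 782 of the 1276 (61.3%), and 494 lay outside all other gene bodies. Hosts were found by position alone, without strand or introns. A host can therefore lie on the other strand and need not be the gene whose transcript carries the snoRNA.

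Small nucleolar RNAs (snoRNAs) guide chemical changes of ribosomal RNA and, in a few cases, its cleavage. C/D box snoRNAs, named Snord in mouse, work with the methyltransferase fibrillarin, and H/ACA box snoRNAs, named Snora, work with the pseudouridine synthase dyskerin. Most vertebrate snoRNAs are not transcribed from promoters of their own but are cut out of introns of host genes, many of which code for ribosomal proteins or translation factors. In early development and in stem cells, which grow fast, the demand for ribosomes is high.

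The series studied how histones pass to the 2 new DNA strands at replication, with wild-type mouse embryonic stem cells and cells with changed MCM2. The library used here came from wild-type E14TG2a cells, an established line of mouse embryonic stem cells, cultured in 2i/LIF medium (inhibitors of GSK3 and MEK with leukaemia inhibitory factor) and labelled with 10 µM EdU, a thymidine analogue, for 2 min. It was read by OK-seq, which sequences Okazaki fragments by strand, so that the point where forks leave in both directions appears as a switch in strand. The series lists 30 samples, and the other 29 were not analysed here.

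The authors' list held 2844 zones, each with a breakpoint in a bin of 1 kb and an edge on either side. The zones were 36 to 200 kb wide with a median of 112 kb, and covered 12.98% of the 2402 Mb span examined. A gene counted as inside a zone when either end lay within it, and no snoRNA gene crossed an edge. With 1 library and no replicate there is no error between samples and no test; the intervals given are 95% Wilson intervals of a share, which cover counting error only. Genes of 1 host share their position and are not independent, so counts are also given by locus, which is a host gene or a run of snoRNA genes outside bodies less than 10 kb apart. A locus counted as inside when at least 50% of its genes were. The zones give no depth, height or read count, so how much initiation took place in each is not measured here.

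No snoRNA gene had its own sequence in the tables used (0 of 1276 matched), so the starts of hosts are shown instead. Transcription of a snoRNA cut from a host's intron begins at that host's start. Whether each snoRNA gene lies in an intron on its host's strand was not checked. The 6 hosts below were chosen after their values were seen, because each holds 3 or more snoRNA genes, 4 of them inside zones (Rabggtb, Rpl13a, Rpsa, Eif4a2) and 2 outside (Gas5, Snhg1). Each line shows the 60 bases before an annotated start and the 25 from the start on, 5′ to 3′ on the gene's strand, from RefSeq promoters of GRCm38.p6. Rabggtb and Gas5 had 2 annotated starts each, of which 1 is shown. Capitals mark an unbroken run of C and T of at least 5 bases that begins with C within 5 bases of the start, searched on the gene's own strand only. Such a run resembles a terminal oligopyrimidine tract, a feature at the start of many ribosomal protein messages. It is a looser match, because it may begin before or after the annotated start and so lie partly outside the message, as in Rabggtb.
Rabggtb, chr3:153912942-153913026, minus strand: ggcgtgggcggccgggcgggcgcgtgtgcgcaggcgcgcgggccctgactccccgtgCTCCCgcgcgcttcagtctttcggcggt
Rpl13a, chr7:45128721-45128805, minus strand: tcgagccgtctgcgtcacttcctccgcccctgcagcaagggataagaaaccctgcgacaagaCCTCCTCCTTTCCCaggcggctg
Rpsa, chr9:120127706-120127790, plus strand: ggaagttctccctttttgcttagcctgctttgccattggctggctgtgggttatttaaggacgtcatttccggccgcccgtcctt
Eif4a2, chr16:23107408-23107492, plus strand: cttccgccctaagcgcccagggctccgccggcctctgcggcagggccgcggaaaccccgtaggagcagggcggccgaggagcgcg
Gas5, chr1:161035106-161035190, plus strand: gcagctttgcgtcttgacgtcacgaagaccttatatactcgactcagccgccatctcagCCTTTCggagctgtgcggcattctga
Snhg1, chr19:8723427-8723511, plus strand: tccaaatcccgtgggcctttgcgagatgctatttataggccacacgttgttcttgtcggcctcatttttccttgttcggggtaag

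The run was 14 bases long in Rpl13a, 6 in Gas5 and 5 in Rabggtb, and the other 3 windows held none at this place. Of the 78 hosts of a Snord or Snora gene, 63 had a promoter in the table and 26 of these held such a run (41.3%, 30.0 to 53.6), beside 5511 of 25748 genes with a promoter on these chromosomes (21.4%). Among hosts with an end in a zone the count was 13 of 31 (41.9%), and among the rest 13 of 32 (40.6%). The share of hosts with the run was therefore close to the same on either side of the zone edge. Hosts of other snoRNA genes only had it in 72 of 289 cases (24.9%, 20.3 to 30.2). A match describes these letters and no binding site.

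Taken as 1 class, snoRNA genes were inside zones less often than genes in general. Counted by gene and by midpoint, this gap rested on 1 host. Of the 1276, 217 were inside (17.0%, 15.0 to 19.2), while among all 46709 genes 24.8% had an end in one, and among the 20558 protein-coding genes 32.4%. A long gene has ends far apart and so is counted more readily than a gene of about 100 bases, and by midpoint the shares fell to 19.9% of all genes and 22.5% of protein-coding genes. The snoRNA share was the same by midpoint, 17.0%. The single host Snhg14 held 203 of the snoRNA genes, and without them 215 of 1073 were inside (20.04%, 17.8 to 22.5), close to the 19.9%. By locus 164 of 932 were inside (17.6%, 15.3 to 20.2), an interval that holds the 19.9%. Within 20 kb of a zone lay 277 snoRNA genes (21.7%, 19.5 to 24.1), against 30.4% of all genes and 38.5% of protein-coding genes by nearer end. By midpoint the latter were 26.1% and 29.9%. Without Snhg14, 275 of 1073 snoRNA genes were as near (25.6%, 23.1 to 28.3), close to the 26.1%. The median snoRNA gene was 179 kb from the nearest zone, with an order-statistic interval of 155 to 201 kb. Without Snhg14 the median was 126 kb (111 to 148). For all genes it was 112 kb by nearer end and 124 kb by midpoint.

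The share differed between the symbols. The 92 Snord genes had 41 inside (44.6%, 34.8 to 54.7) and the 36 Snora genes 20 (55.6%, 39.6 to 70.5), whereas the 1148 genes of other symbols had 156 (13.6%, 11.7 to 15.7). The Snord and Snora shares lay above those of protein-coding genes by either measure, and the share of the rest lay below that of all genes. Within 20 kb of a zone were 50 Snord genes (54.3%), 21 Snora genes (58.3%) and 206 of the others (17.9%). The median distance to a zone was 6.84 kb for Snord, 0 kb for Snora, which means inside, and 212 kb for the others.

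Snord and Snora genes did not differ beyond counting error. The Snord share minus the Snora share was −10.99 percentage points, with a Newcombe interval from −28.8 to 7.95 points. Counted by locus, 27 of 54 Snord loci (50.0%) and 17 of 31 Snora loci (54.8%) were inside, and 137 of 881 loci of other symbols (15.6%). The 17 Snord116 copies, all in 1 host, made up most of the gap by gene, because without them 41 of 75 Snord genes (54.7%, 43.4 to 65.4) were inside.

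**Figure D1:**
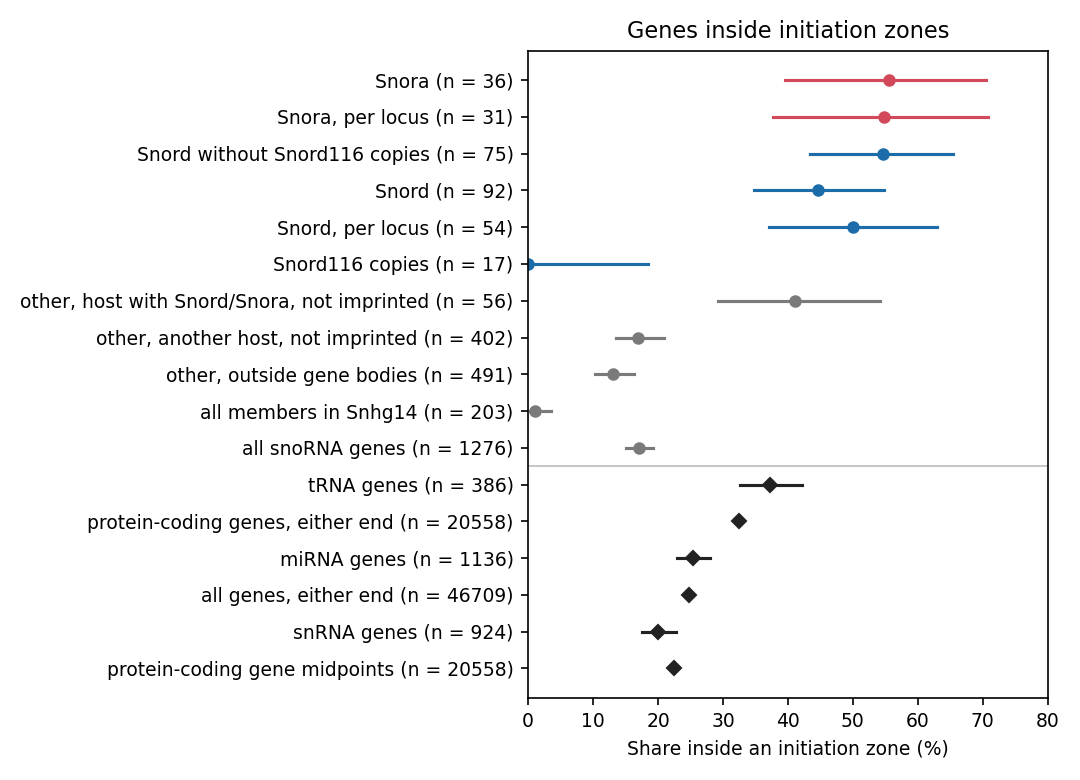
Share of genes inside an initiation zone (x axis, percent) for snoRNA sets (circles) and for other gene classes (diamonds), with 95% Wilson intervals as lines that cover counting error only. Snora and Snord sit at 55.6% and 44.6%, right of the protein-coding genes at 32.4%, while all snoRNA genes sit at 17.0% and the members in Snhg14 near 0.

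The annotation status of a gene went with its symbol. RefSeq had a curated record for 122 of the snoRNA genes, which were 74 Snord, all 36 Snora and 12 others. Curated genes were inside in 63 of 122 cases (51.6%, 42.9 to 60.3), and genes known only from a predicted model in 154 of 1153 (13.4%, 11.5 to 15.4). None of the 17 Snord genes with a model record was inside (0 of 17, up to 18.4%), but 15 of them are Snord116 copies of 1 host. Of the 12 curated genes of other symbols, 10 lay in the imprinted hosts Snhg14, Ipw or Rian and none of these was inside, while the other 2, AF357399 in Rps16 and Gm12238 in G3bp1, were. Without Snhg14, 153 of 955 genes with a model record were inside (16.02%). This division by record was chosen after its values were seen. Whether the predicted genes are all transcribed snoRNAs in these cells was not tested, since no RNA data were used.

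Other small RNA classes had higher shares than the 17.0% (15.0 to 19.2) of all snoRNA genes, but for snRNA genes the intervals overlapped. Transfer RNA genes were inside in 144 of 386 cases (37.3%, 32.6 to 42.2) and miRNA genes in 288 of 1136 (25.4%, 22.9 to 28.0). For snRNA genes, the spliceosomal and related RNAs, it was 185 of 924 (20.02%, 17.6 to 22.7). Without the single host Snhg14 the snoRNA share was 20.04% (17.8 to 22.5), about that of snRNA genes. The guide RNAs of Cajal bodies, small nuclear bodies where spliceosomal RNAs are modified, carry the biotype guide_RNA in this table and are not counted among the snoRNA genes. Of 9 genes named Scarna, 4 were inside (Scarna2, Scarna6, Scarna10 and Scarna13) and 2 more were within 20 kb, Scarna3a at 9.58 kb and Scarna9 at 10.3 kb. The share inside was 44.4% with a wide interval (18.9 to 73.3), which holds the 24.8% of all genes. Within 20 kb lay 30.4% of all genes. Of all 37 genes of biotype guide_RNA, 12 were inside (32.4%, 19.6 to 48.5).

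Distances rose in steps for the named genes. By 100 kb from a zone, 76 of 92 Snord genes (82.6%) and 28 of 36 Snora genes (77.8%) had been reached, but 394 of 1148 others (34.3%). For all genes it was 47.7%, and for protein-coding genes 55.9% by nearer end and 51.6% by midpoint. By 50 kb the Snord count was 55 (59.8%). The step from there to 100 kb held Snord116 copies of the single host Snhg14, which lay 58.2 to 101 kb from a zone and are not independent. Of the 51 Snord genes outside zones, 9 lay within 20 kb, and they came from 5 hosts. They were Snord67 in Ckap5 at 0.823 kb, the trio Snord49b, Snord49a and Snord65 in the noncoding host 2410006H16Rik at 5.09 to 6.53 kb, the trio of Snord1 genes in Snhg16 at 5.51 to 7.597 kb, Snord59a in Atp5b at 8.14 kb and Snord68 in Rpl13 at 9.06 kb. Snora7a in Rpl32, at 5.98 kb, was the 1 Snora gene in that range.

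**Figure D2:**
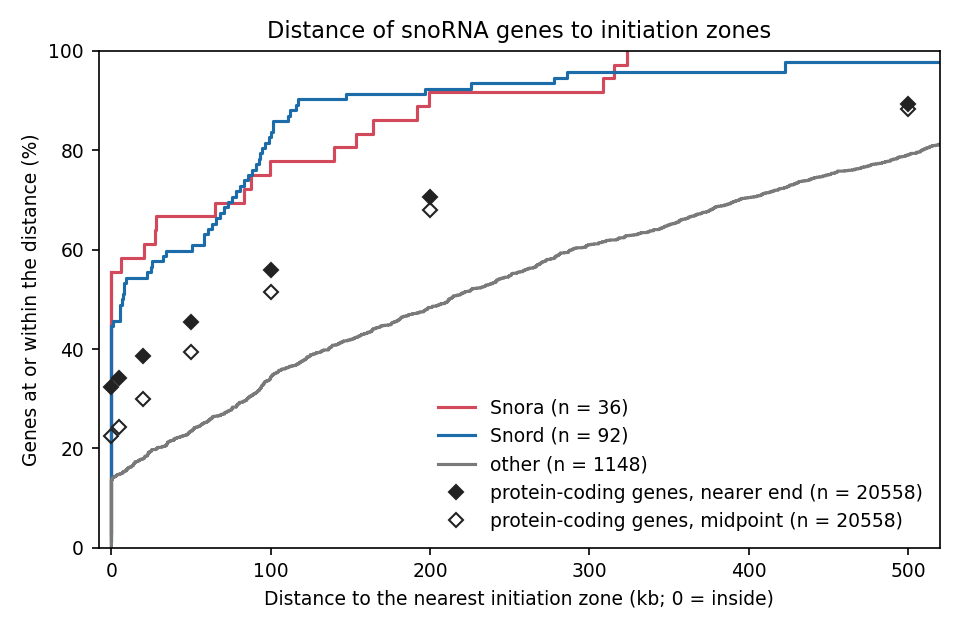
Cumulative share of Snora, Snord and other snoRNA genes (lines, y axis in percent) at or within a distance to the nearest initiation zone (x axis in kb, 0 meaning inside), with protein-coding genes by nearer end (filled) and by midpoint (open). Snora and Snord start at 55.6% and 44.6% and the other symbols at 13.6%, with 34.3% of the latter reached at 100 kb.

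Genes in a host's body were inside zones more often than genes outside bodies, by a difference that depended on which hosts were counted. Inside bodies 150 of 782 were in a zone (19.2%, 16.6 to 22.1), and outside bodies 67 of 494 (13.6%, 10.8 to 16.9), a difference of 5.62 points (1.41 to 9.61). The difference was 12.5 points (7.73 to 17.1) without the loci of 10 or more genes and 17.8 points (13.1 to 22.6) with protein-coding hosts only. By locus the shares were 97 of 448 (21.7%) and 67 of 484 (13.8%). For genes of other symbols alone the shares were close, 92 of 657 (14%) in bodies and 64 of 491 (13.03%) outside, although without Snhg14 the first became 91 of 472 (19.3%). The 3 Snord genes outside bodies were each inside a zone: Snord118, Snord13 and Snord89.

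The kind of host separated the genes further. Protein-coding hosts held 423 snoRNA genes, of which 122 were inside a zone (28.8%, 24.7 to 33.3), and lncRNA hosts held 349, of which 27 were (7.74%, 5.37 to 11.02). Of these 349, 203 lay in the single lncRNA Snhg14, and without it 25 of 146 were inside (17.1%). Leaving aside the imprinted hosts Snhg14, Ipw and Rian, 23 of 56 genes of other symbols were inside where the host also held a Snord or Snora gene (41.1%, 29.2 to 54.1), and 68 of 402 in hosts without one (16.9%, 13.6 to 20.9). With Snhg14, which also holds Snord genes, the first count became 24 of 241 (9.96%), so the higher share of genes beside a Snord or Snora gene held only without that host. Genes of 1 host share its position, so these shares are not independent of each other.

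Host length moved with these shares. In protein-coding hosts of at most 20 kb, 39 of 60 Snord and Snora genes (65.0%, 52.4 to 75.8) and 42 of 87 others (48.3%, 38.1 to 58.6) were inside. The midpoints of all protein-coding genes of this length were inside in 25.9% of 11011 cases. In longer hosts the counts were 5 of 16 (31.3%, 14.2 to 55.6) and 36 of 260 (13.8%, 10.2 to 18.6). Midpoints of protein-coding genes of every length were inside in 22.5% of cases, so longer protein-coding genes in general also had a lower share than short ones. Those over 20 kb were not counted apart. Hosts of a Snord or Snora gene had a median length of 4.82 kb, and hosts of other snoRNA genes only 63.8 kb.

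For snoRNA genes of other symbols, the number of protein-coding genes around them also moved with the share inside. Counting those with a midpoint within 250 kb on either side, the median was 10 for Snord and Snora genes, 6 for other symbols in bodies without Snhg14 and 2 for other symbols outside bodies. Genes of other symbols, without Snhg14, were inside in 47 of 551 cases (8.53%, 6.48 to 11.2) with 4 or fewer neighbours, in 61 of 243 (25.1%, 20.1 to 30.9) with 5 to 9 and in 47 of 169 (27.8%, 21.6 to 35.0) with 10 or more. Snord and Snora genes stood at 3 of 22 (13.6%, 4.75 to 33.3), 19 of 36 (52.8%, 37.0 to 68.0) and 39 of 70 (55.7%, 44.1 to 66.8) in the same classes. In the 2 upper classes their share was higher, with intervals that did not overlap those of the other symbols. In the lowest class the intervals overlapped, and 17 of the 22 genes there were Snord116 copies. The part of gene density, length or host class in the result was not tested beyond these counts.

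The 78 hosts of a Snord or Snora gene are mostly genes of the translation machinery and noncoding genes. Of them 40 had an end in a zone (51.3%, 40.4 to 62.1), and for 39 (50.0%) at least 50% of the snoRNA genes themselves were inside. Ribosomal protein genes made up 22 of these hosts, and 13 were inside (59.1%, 38.7 to 76.7). Among these were Rps2, Rps3a1, Rps12, Rps13, Rpsa, Rpl3, Rpl13a, Rpl17, Rpl23, Rpl23a, Rpl37 and Rplp2. Outside zones lay, among others, Rps3, Rpl4, Rpl5, Rpl12, Rpl13, Rpl27a and Rpl32.

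Ribosomal protein genes without a snoRNA gene had nearly the same share. Of 73 ribosomal protein genes on these chromosomes, 28 held a snoRNA gene of any symbol and 16 of them had an end inside (57.1%, 39.1 to 73.5), and 45 held none and 25 of these were inside (55.6%, 41.2 to 69.1). Both shares exceeded the 32.4% of protein-coding genes. The difference between them was 1.59 points with a Newcombe interval from −20.97 to 23.4, which includes differences of either sign.

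Translation factor hosts were inside in 6 of 7 cases (85.7%, 48.7 to 97.4), beside 32.4% of all protein-coding genes. Those inside were Eef1b2, Eif4a2, Eif4g1, Eif5, Tpt1 (the growth-associated protein TCTP) and Rack1 (a protein of the small ribosomal subunit), and the elongation factor Eef2 was not. Of 3 hosts on a short list of nucleolar protein symbols, which does not hold every nucleolar gene, Nop56 and Nop58 were inside and nucleolin, Ncl, was not. Both Nop56 and Nop58 code for core proteins of the C/D snoRNPs, which means that these hosts encode parts of the particles that their own snoRNAs join.

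Noncoding hosts, whose spliced RNA often has no known product, were inside in 8 of 22 cases (36.4%, 19.7 to 57.0). Of all 12322 lncRNA genes 21.5% had an end inside, a share within that interval. Inside were Snhg6, Snhg7, Snhg9, Snhg12, Zfas1, Dancr, AI450353 and 5730408K05Rik, and outside were among others Gas5, Snhg1, Snhg3, Snhg4, Snhg8, Snhg14, Snhg16 and Snhg18. The remaining 24 hosts had 11 with an end inside (45.8%, 27.9 to 64.9). The 370 hosts of other snoRNA genes only had an end inside in 130 cases (35.1%, 30.4 to 40.1). For only 58 of them (15.7%) were at least 50% of the snoRNA genes inside, so a zone at the end of a long host often did not reach its snoRNA.

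Around breakpoints the Snord and Snora genes piled up in the first bins. Of the 128, 35 (27.3%) lay within 20 kb of a breakpoint, 19 (14.8%) at 20 to 40 kb and 14 (10.9%) at 40 to 60 kb. The ends of protein-coding genes, 41116 in number, had 9.67%, 9.34% and 6.90% in these bins, and other snoRNA genes without Snhg14 had 6.23%, 4.78% and 6.85%. A second rise at 120 to 160 kb held 24 Snord and Snora genes, of which 15 were Snord116 copies of the single host Snhg14.

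**Figure D3:**
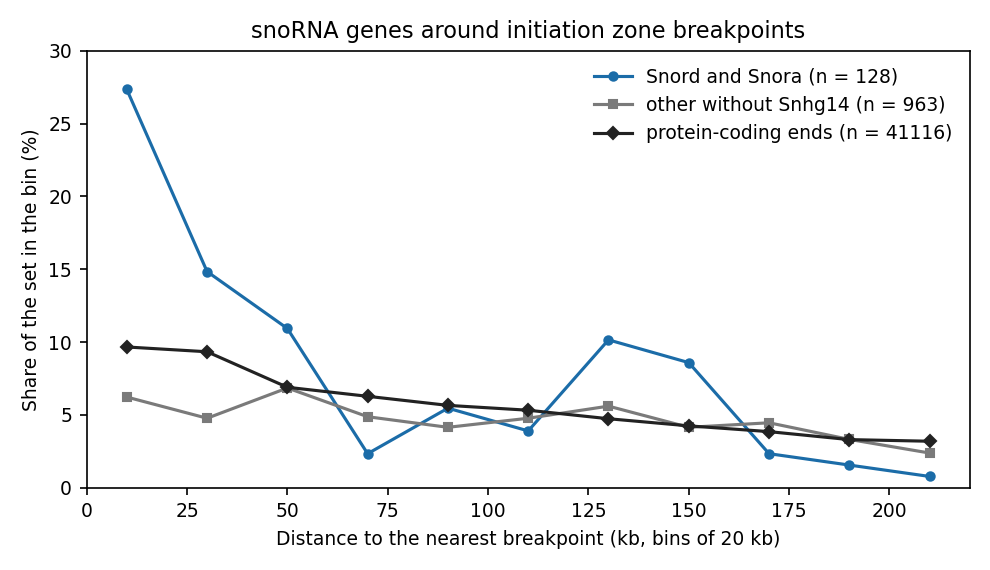
Share of each set (y axis, percent) in bins of 20 kb of the distance to the nearest breakpoint (x axis, kb), for Snord and Snora genes together, other snoRNA genes without those of Snhg14, and ends of protein-coding genes. Snord and Snora genes have 27.3% in the first bin, against 9.67% for protein-coding ends and 6.23% for the other snoRNA genes.

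Among genes inside zones, snoRNA genes lay much like other genes when these were placed by nearer end, and somewhat nearer breakpoints by midpoint. Of the 217 snoRNA genes inside, 95 (43.8%, 37.3 to 50.4) were within 20 kb of a breakpoint, and of all 11595 genes with an end inside it was 43.6%. Of the 9316 genes with a midpoint inside it was 36.6%, just below the snoRNA interval. The Snord genes had 26 of 41 there (63.4%, 48.1 to 76.4), the Snora genes 9 of 20 (45.0%) and the others 60 of 156 (38.5%). Median breakpoint distances inside zones were 14.5 kb for Snord, 22.0 kb for Snora and 27.9 kb for the others. For all genes it was 23.6 kb by nearer end and 28.5 kb by midpoint. The Snord interval lay above the share of all genes, but the 41 genes came from 28 loci and the 26 near breakpoints from 17, so they are not independent.

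Among the Snord genes nearest to a breakpoint, 1 for each host, Snord11 in Nop58 lay at 0.308 kb. Another was Snord45c in Rabggtb, a subunit of the enzyme that attaches lipid anchors to Rab proteins, at 3.31 kb. Snord42b in Rpl23a was at 4.39 kb, Snord23 in Nop53, a ribosome assembly factor, at 4.64 kb, and Snord35a in Rpl13a at 4.85 kb. Snord118, outside any body, was at 4.94 kb, and Snord87 in Snhg6 at 5.96 kb. A breakpoint is known only to its bin of 1 kb, so the order of values closer than that says nothing.

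Among the farthest Snord genes were Snord123 in Snhg18, 610 kb from a zone, and Snord88c in 2410002F23Rik at 423 kb. Neither host codes for a ribosomal protein, and Snhg18 is a noncoding host. Among Snora genes the nearest to a breakpoint were Snora21 in Rpl23 at 5.73 kb, Snora26 in Dancr at 6.03 kb, Snora41 in Eef1b2 at 7.37 kb and Snora62 in Rpsa at 12.9 kb. Snora16a in Snhg12 at 13.97 kb, Snora31 in Tpt1 at 15.5 kb, Snora81 in Eif4a2 at 16.3 kb and Snora28 in Eif5 at 21.4 kb followed. These 8 hosts were all ribosomal protein genes, translation factors or noncoding hosts. Most hosts are of these kinds, since the 78 hosts of a Snord or Snora gene include 22, 7 and 22 of them. The farthest Snora genes were Snora36b in Rab3gap2 at 324 kb, Snora2b in Kansl2 at 315 kb and Snora5c in Tbrg4 at 199 kb.

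**Figure D4:**
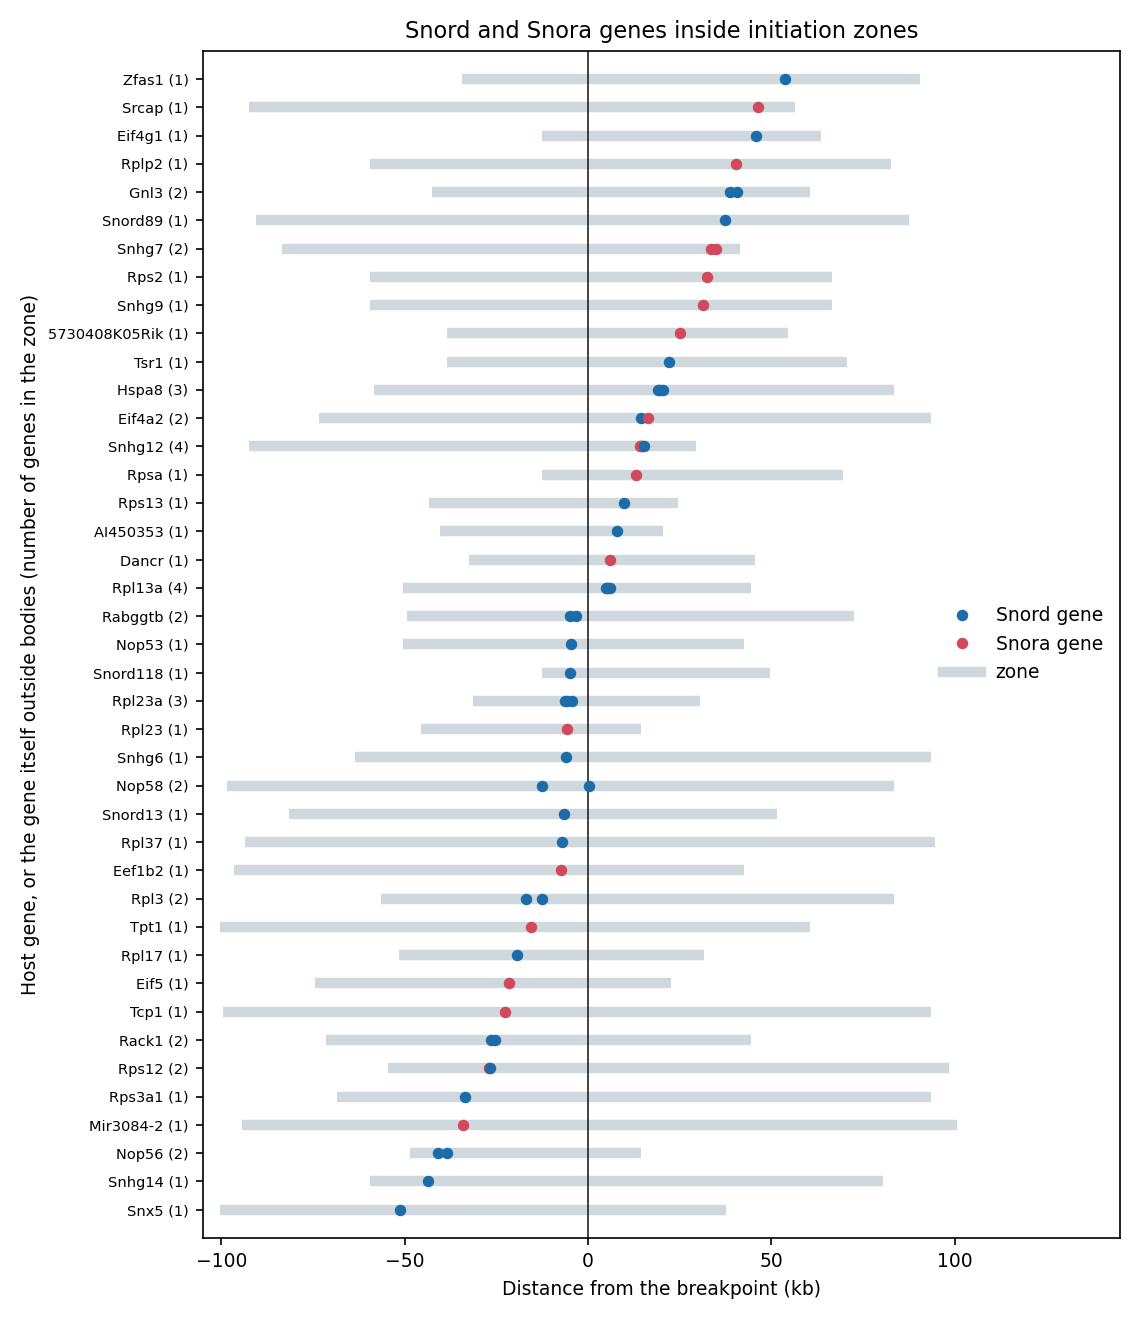
Each row is a host (1 is not shown), or a gene outside bodies, with a Snord (blue) or Snora (red) gene inside a zone, the number of such genes in brackets, the zone as a grey bar and the breakpoint at 0 (x axis, kb). Points lie on both sides, from Snord17 in Snx5 at 51.3 kb on one side to Snord12 in Zfas1 at 53.8 kb on the other.

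Among genes of other symbols the nearest was Gm23123 in Fam234a at 0.002 kb, within the breakpoint's own bin. Gm26287 in Nop58 was at 0.162 kb, Gm26088 at 0.549 kb, AF357399 in the ribosomal protein gene Rps16 at 0.867 kb and Gm23132 at 1.08 kb. LOC115490283 at 1.55 kb, LOC115489589 in Snhg17 at 1.57 kb and LOC115488428 at 2.57 kb completed the 8. Nop58, Rps16 and Snhg17 among these hosts belong to the same kinds as the hosts of Snord and Snora genes. At the other end stood Gm23015 at 3546 kb, Gm22313 in Lrrc4c, a gene of synapse formation, at 3210 kb and Gm23896 at 3153 kb. No Snord or Snora gene was as far as these.

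Most of the 932 loci held a single snoRNA gene (861), and 71 held 2 or more. Loci were mostly inside or outside as a whole, with 24 having every gene inside, 43 none and 4 split by a zone edge (Snhg14, Taf1d, Ipo7 and Tmem117). The 15 loci of 4 or more genes held 283 of the 1276, and 5 of them were wholly inside and 8 wholly outside.

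Those wholly inside were Eif4a2 and Nop56 with 5 genes each, and Nop58, Rpl13a and Snhg12 with 4 each. In Eif4a2, an RNA helicase of translation initiation, the 5 genes lay 14.5 to 17.1 kb from the breakpoint of a zone at chr16:23021001-23188000. In Nop56 they were 38.4 to 40.9 kb from the breakpoint of the zone at chr2:130268001-130331000, off its centre. The 4 genes of Rpl13a were 4.85 to 5.88 kb from the breakpoint of their zone. Taf1d, which codes for a factor of RNA polymerase I, had 5 of its 6 genes inside and the sixth 0.676 kb beyond the edge at 15316000 on chromosome 9.

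Several well-known hosts with many snoRNAs lay outside. Gas5, whose spliced RNA accumulates in growth arrest, had 8 genes at 92.6 to 95.5 kb from a zone, and Snhg1 had 8 at 99.0 to 101 kb. Rpl4 had 5 at 48.8 to 50.9 kb and Rpl7a had 4 at 265 to 267 kb. The locus 2410002F23Rik had 4 at 422 to 425 kb, the farthest of these. Hosts with many snoRNA genes thus lay on both sides.

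The imprinted snoRNA clusters, expressed from 1 parental chromosome and known mainly from brain, had nearly all of their snoRNA genes outside zones. Snhg14, the host of the Prader-Willi region, held 203 snoRNA genes, 15.9% of all, in a body of 1177 kb on chromosome 7. Only Snord64 and LOC115486845 lay inside a zone (0.985%, 0.271 to 3.52). In this host 128 genes were 79 bases long, carried symbols starting with Gm and lay 344 to 615 kb from a zone, and 63 genes were 94 bases long. The 17 named Snord116 copies were 58.2 to 101 kb away. A single zone span, listed with 2 breakpoints, overlapped the gene, and zones covered 11.9% of its bases, close to the 12.98% of the whole span.

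Of the 2 repeat runs, the zone thus lay on the side of the Snord116 copies and past them. The median spacing of gene starts was 1.87 kb, so these positions are steps along 1 array and not separate cases. In the other imprinted cluster, on chromosome 12, Rian held 11 genes at 71.1 to 97.1 kb from a zone, and a run of 8 outside bodies lay at 120 to 128 kb. Over Snhg14, Ipw and Rian together 2 of 217 genes were inside (0.922%, 0.253 to 3.30). Without the Snhg14 genes the share of all snoRNA genes was 215 of 1073 (20.04%, 17.8 to 22.5).

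**Figure D5:**
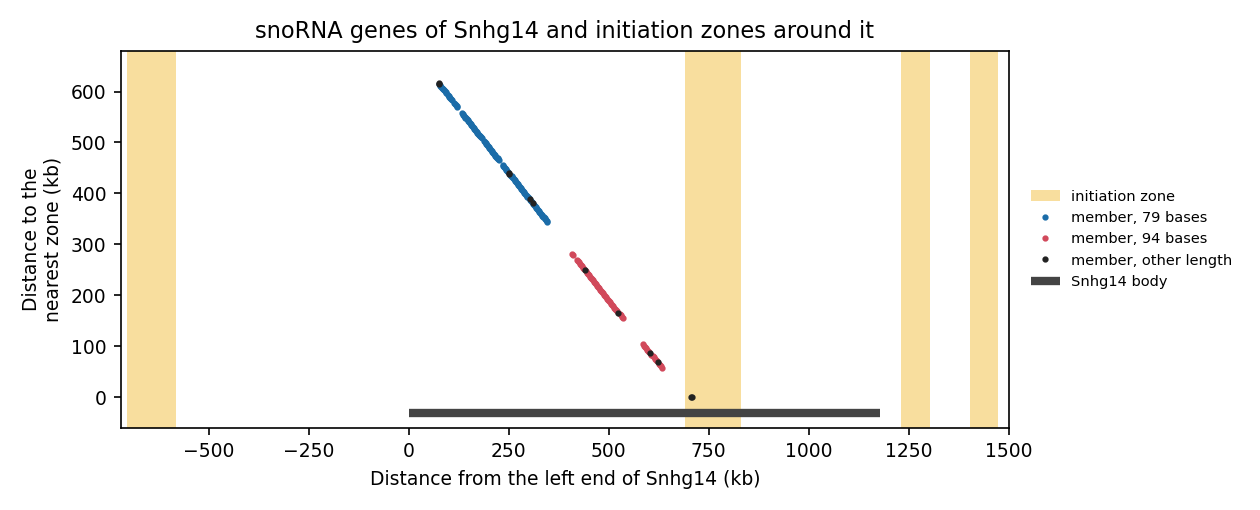
Each point is 1 of the 203 snoRNA genes of Snhg14, by its distance from the left end of the gene (x axis, kb) and its distance to the nearest initiation zone (y axis, kb), coloured by length; yellow bands are zones and the dark bar is the Snhg14 body. The 128 genes of 79 bases are 344 to 615 kb from a zone and 2 genes lie in the zone within the body.

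The snoRNAs of a list linked to processing of ribosomal RNA precursors, some of which also guide its modification, were on both sides. Of 16 such genes found, 8 were inside (50.0%, 28.0 to 72.0), although the U3 genes named Rnu3 carry biotype snRNA and are not among the 1276. The share was close to that of all Snord and Snora genes (47.7%, 39.2 to 56.3), beside 24.8% of all genes with an end inside. The 8 inside include 3 copies of the single host Hspa8, and Rnu3b1 to Rnu3b4 lie close together. The genes of this list are therefore not independent. Snord118 (U8, needed for the large subunit) was 4.94 kb from a breakpoint, Snord13 (U13) 6.54 kb and Snord14a (U14, in Rps13) 9.67 kb. The 3 further U14 copies in the heat shock gene Hspa8 lay at 19.1, 19.5 and 20.2 kb, and Snord17 in Snx5 at 51.3 kb. Rnu3a was inside, and Rnu3b1 to Rnu3b4 were 32.2 to 60.4 kb away.

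The other members of this list lay outside. Snord22 (U22, in Snhg1) was 99.0 kb from a zone, Snora73a and Snora73b (U17, in Snhg3) 27.8 and 27.3 kb, and Snora74a (U19, in Snhg4) 87.8 kb. These 4 lie in noncoding hosts, and the 3 H/ACA genes among them were all outside. Snord3a was not matched in the table. The 4 Rpl13a snoRNAs Snord32a, Snord33, Snord34 and Snord35a, known for a role in lipid stress, were all inside at 4.85 to 5.88 kb from 1 breakpoint, and count as 1 locus.

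The genes of the proteins that bind or assemble snoRNAs were inside in 12 of 21 cases (57.1%, 36.5 to 75.5), beside 32.4% of protein-coding genes. Of the C/D core proteins Nop56 and Nop58 were inside, and Fbl (fibrillarin) was 107 kb and Snu13 30.3 kb away. Of the H/ACA core proteins Nhp2 was inside, and Nop10 was 97.1 kb and Gar1 200 kb away, with Dkc1 on the X chromosome not placed. Among assembly factors Naf1, Ruvbl1, Nufip1, Znhit3 and Pih1d1 were inside, and Shq1 at 1273 kb, Znhit6 at 284 kb, Ruvbl2 at 256 kb and Rpap3 at 209 kb were not. Nolc1 and Coil, proteins of nucleolus and Cajal body, Rrp9, a U3 protein, and the export adaptor Phax were inside, while Tgs1, which caps snoRNAs, was 168 kb away.

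The direction of host transcription against the breakpoint was read where a strand was given. Of 134 hosts with an end in a zone, 83 (61.9%, 53.5 to 69.7) were transcribed away from the breakpoint, beside 56.7% of 7268 stranded genes in zones. Hosts of a Snord or Snora gene had 16 of 31 (51.6%, 34.8 to 68.0), and hosts of other snoRNA genes only 67 of 103 (65.0%, 55.5 to 73.6). Each of these intervals held the share of all stranded genes. In hosts of at most 20 kb with a Snord or Snora gene it was 12 of 25 (48.0%), beside 52.0% of protein-coding genes of that length. Strand was known for 352 of the 448 hosts, and the strand of the snoRNA genes themselves was not in the table.

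Seen from the zones, 159 of 2844 (5.59%) held a snoRNA gene and 42 held a Snord or Snora gene. The most in 1 zone was 5. Zones with a snoRNA gene had a median width of 127 kb and those without 111 kb, and the wider a zone is the more it can hold. The median number of protein-coding genes with an end in the zone was 4.5 for zones with a Snord or Snora gene, 2 for zones with other snoRNA genes only and 2 for zones without any. Zones with a Snord or Snora gene thus held more protein-coding genes at the median, and zones with other snoRNA genes the same number as the rest. Their median widths were 124.5 and 128 kb. A protein-coding host with an end in the zone is itself counted, so the choice of zones can raise this number.

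The share of snoRNA genes inside zones differed between chromosomes. The highest shares inside were 23 of 66 on chromosome 11 (34.8%, 24.5 to 46.9) and 25 of 78 on chromosome 9 (32.1%, 22.7 to 43.0). Of those on chromosome 9, 5 lay in the single host Taf1d, so these genes are not independent. Chromosome 8 had 4 of 58 (6.90%, 2.71 to 16.4), with Snord13 as its 1 Snord or Snora gene inside of 5. Chromosome 7 held 260 snoRNA genes and had 18 inside, but 16 of the 57 outside Snhg14. Neither zone cover nor the share of all genes was counted by chromosome. Whether these differences are particular to snoRNA genes was therefore not tested.

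Lengths separated the symbols as well, with medians of 77 bases for Snord, 120.5 for Snora and 131 for other symbols. Among genes of other symbols without Snhg14, those of up to 100 bases, the usual size of C/D snoRNAs, were inside in 25 of 121 cases (20.7%, 14.4 to 28.7). Those of over 120 and up to 140 bases, the usual size of H/ACA snoRNAs, were inside in 95 of 644 (14.8%, 12.2 to 17.7). These intervals overlapped, and neither class reached the Snord or Snora share. One annotation is odd: the shortest gene that holds Snora19, which lay 34.1 kb from a breakpoint, is the miRNA gene Mir3084-2.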

How the data were processed

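Per the labels' protocols the library is genomic DNA of wild-type E14TG2a cells labelled with EdU. The build was mm10, and Picard 2.8.2, BWA 0.7.13, Bowtie, SAMtools, Trim Galore 0.4.2 and bcl2fastq are named, per the submitters' processing notes; what each did and how zones were called are not stated in the sources at hand. The deposited list gives, per the file headers, each zone's breakpoint bin and distances in bases to its left minimum and right maximum, with no counts, so depth is unknown. Arms reached at most 100 kb. Other samples (29) were not analysed here.

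Gene positions, biotypes and record types came from RefSeq (GRCm38.p6). Distances ran from the nearer end of a gene to the nearest zone or breakpoint (Python 3.11.15, pandas 2.3.3, numpy 2.4.6), and intervals came from scipy 1.17.1. A host was the shortest gene holding the whole snoRNA gene. Functions were checked on simulated data. Named genes were, for each symbol group and at most 1 per host, the 8 inside zones nearest to a breakpoint and the 3 farthest from zones, loci of 4 or more genes, and lists of pre-rRNA processing, imprinted, Rpl13a and Scarna RNAs, snoRNP protein genes and host classes by symbol. Members and lists were chosen with earlier results of these data known. Alternatives changed the zones, the distance limits, the genes counted and the host rule. Genes on scaffolds and on the X chromosome were left out. A few genes that the rule names are not reported here.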

Additional observations from a re-analysis of the deposited data

How the results depend on the processing

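No paired analysis was possible because the list comes from 1 library with no replicate. The share of snoRNA genes inside zones (17.0%) became 10.97% with only zones of median width or more, 7.45% with only the part within 20 kb of the breakpoint, 44.9% without predicted symbols, 20.2% without loci of 10 or more genes and 51.6% with curated records alone. The share within 20 kb (21.7%) became 52.2% without predicted symbols, 25.9% without those loci, 59.0% with curated records, 18.2% at a limit of 5 kb and 27.3% at 50 kb. The median distance (179 kb) became 7.37 kb without predicted symbols, 131 kb without those loci, 0 kb with curated records and 234 kb to the breakpoint. The share of loci inside (17.6%) became 11.6% with wide zones and 7.19% with central parts. The Snord minus Snora difference (−10.99 points) changed sign to 3.26 in central parts (−14.8 to 18.3). The difference between genes in and outside bodies (5.62 points) became 17.8 with protein-coding hosts only and 12.5 without those loci. The share of genes inside zones that lay near the breakpoint (43.8%) became 24.0% for 10 kb. By their construction these alternatives change the zone area, the limit or the genes counted. The curated and large-locus alternatives, and counts without Snhg14 or the imprinted hosts, were chosen after seeing the data. Merging zones less than 10 kb apart or using midpoints changed none of the values above that were run with them. With 1 library no value here has an error between cultures, and zones without depth allow no limit of detection.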
